A study of Rattus norvegicus with 28 samples.

Results

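The response of the ventilated lung to acute injury was read from 7 of the 28 libraries of this series, the 4 libraries labelled acute_noisy and the 3 labelled healthy_noisy, chosen by their labels alone. All 7 hold polyadenylated RNA from Sprague Dawley rats, taken from the upper lobe of the right lung. Both groups were ventilated with tidal volumes that varied from breath to breath ("noisy"), so ventilation is shared and the groups differ in injury. The acute_noisy rats were ventilated after an acute lung injury and the healthy_noisy rats had no earlier injury. How the injury was made, the ages and the ventilation times are not given in the labels used here, and nothing there says that each library is a separate animal, so p-values measure the spread between libraries. Unless stated otherwise, the spread behind each SE and p-value was pooled over the libraries of all 8 groups, not taken from the 7 alone. Of the 17002 genes in the table, 14908 had a mean normalised read count of at least 10 over the 28 libraries and were tested. Depth was 14133931 to 22967405 reads in acute_noisy and 13002088 to 16255716 in healthy_noisy. The comparison asks which genes a lung under variable ventilation expresses differently once it is acutely injured. As lung markers, Sftpc, the surfactant protein of alveolar type 2 cells, lay between 129597 and 314136 normalised reads, and Ager, a receptor of alveolar type 1 cells, between 25875 and 53737 in the 7 libraries.

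Acute lung injury damages the thin epithelium of the alveoli and the capillaries beside it, and fluid and leukocytes then enter the air space. Surviving epithelial cells take on a stressed, wound-closing state with other keratins and junction proteins. Epithelium, macrophages and endothelium release cytokines and chemokines, and clotting is turned on through tissue factor. Tidal stretch of the ventilated lung can act on some of the same genes.

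The 4 acute_noisy libraries fell into pairs. Library numbers in their titles begin with 15 in acute_noisy_046 and acute_noisy_053 and with 14 in acute_noisy_047 and acute_noisy_050, and all 3 healthy_noisy libraries are of series 15. The labels do not say what these number series stand for. On the first principal component of the 7 libraries (64.7% of the variance) the healthy libraries lay at 31.1 to 64.2, the acute libraries of series 15 at 20.7 and -4.12, and those of series 14 at -77.8 and -88.6. Between the pairs, 3412 of 14908 genes differed (22.9%) by limma at an adjusted p of 0.05, a count that fell to between 526 and 3051 with 1 acute library left out, lowest without acute_noisy_053 (526) and without acute_noisy_047 (822). Injury and series can be compared within series 15 only, with 2 libraries against 3. The larger effect in the pair of series 14 and the series itself cannot be told apart. Results below are given over all 4 acute libraries and, beside them, within series 15.

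Over all 4 acute libraries 3987 genes passed the threshold, which is 26.7% of those tested. Of these 1922 (12.9% of genes tested) were higher and 2065 (13.9%) were lower after injury, so 48.2% of the calls were higher. The edgeR quasi-likelihood test on reads recovered from the table called 4147 genes, of which 63.6% were higher. Within series 15 the count was 153 genes (1.03%), 105 higher (0.704%) and 48 lower (0.322%). The series 14 pair against the same healthy libraries gave 7311 genes (49%). With number series as a covariate in the model 732 genes passed (4.91%), 409 higher (2.74%) and 323 lower (2.17%). Besides acute_noisy, only healthy_VCV holds both series 14 and series 15, with healthy_VCV_062 as its only library of series 15. The covariate thus rests on the acute pairs themselves and on healthy_VCV_062 against the other healthy_VCV libraries. When the spread was estimated from the 7 libraries alone, 8 genes passed (0.0537%), all higher, and 3992 had an unadjusted p under 0.05. In that fit 0 members passed in the lists of coagulation, hypoxia and glycolysis, heat shock, chemokines, receptors, NF-kB and ciliated cell genes described below. The lists of cytokines and of epithelial stress keratins had 1 member each. Anxa2, Timp1 and Ptx3, also described below, did not pass there (limma adjusted p = 0.067, 0.11 and 0.1). The count over all libraries fell to between 1555 and 2256 without acute_noisy_047, acute_noisy_050, healthy_noisy_061 or healthy_noisy_029, each left out in turn, and rose to 6146 without acute_noisy_053. These comparisons share the 3 healthy libraries, so their calls are not independent of each other. The acute and healthy libraries did not overlap for 1716 genes above (11.5%) and 1544 below (10.4%).

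The largest rises by log2 change among named genes were in Krt17, Il24, Il6 and Prss22, followed by Tfpi2, Calcb, Ptx3 and Acta1. Krt17, a keratin of basal and injured epithelium (ENSRNOG00000026371), had 10.9, 14.3 and 0 normalised reads in the healthy libraries, 2233 and 2220 in the acute libraries of series 15, and 6028 and 3754 in those of series 14. Its log2 change was 9.17 ± 0.76 (SE, n = 4 against 3, limma adjusted p = 1.5e-07), and 8.62 within series 15 (adjusted p = 4.4e-05). All 4 acute libraries lay far above the highest healthy one. Unventilated uninjured lungs (control_blank, n = 3) had 18.3 to 102 reads of Krt17, above the healthy_noisy libraries but far under the injured ones. Healthy lungs under constant tidal volume (healthy_VCV) had 2.82 to 21.5, which overlaps the unventilated range. The control_blank libraries are of number series 12, which no acute_noisy or healthy_noisy library shares.

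Il24, a cytokine that signals to epithelial cells (ENSRNOG00000004470), had 0, 3.07 and 3.92 reads in the healthy libraries, 462 and 495 in the acute pair of series 15, and 856 and 633 in that of series 14. Its log2 change was 7.77 ± 0.73 (limma adjusted p = 1.1e-06). Prss22, a serine protease of airway epithelium (ENSRNOG00000039698), had 15.7, 47.1 and 6.53 reads in healthy lungs against 872 and 1411 in series 15 and 1426 and 1177 in series 14 (log2 change 6.04 ± 0.63, limma adjusted p = 3.9e-06). For both genes every acute library was high, and the series 15 minus 14 difference did not pass, at -0.62 for Il24 and -0.22 for Prss22 (limma adjusted p = 0.67 and 0.87).

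Acta1, the actin of skeletal muscle and a target of serum response factor (ENSRNOG00000017786), rose from 22.9, 23.5 and 10.5 reads to 241 and 403 in series 15 and 792 and 375 in series 14. Fosl1, a subunit of the transcription factor AP-1 (ENSRNOG00000020552), rose from 28.9, 34.8 and 31.4 reads to 383 and 520 in series 15 and 1379 and 750 in series 14. The log2 changes were 4.45 ± 0.43 for Acta1 and 4.37 ± 0.60 for Fosl1 (limma adjusted p = 1.1e-06 and 0.00012). Tnfrsf12a, the receptor of the cytokine TWEAK (ENSRNOG00000003546), rose from 242 to 389 reads in healthy lungs to 1194 and 1546 in series 15 and 2575 and 1975 in series 14 (log2 change 2.52 ± 0.39, limma adjusted p = 0.00034). LOC298795 (ENSRNOG00000033153) rose from 101 to 174 reads to 635 and 765 in series 15 and 1153 and 803 in series 14. Together with Krt17, Il24, Prss22 and 1 gene that carries only a protein entry name, these are the 8 genes that also passed when only the 7 libraries were used (limma adjusted p of 0.0063 to 0.029 for the 7 with a symbol). All 8 also passed within series 15 and with the series covariate.

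**Figure D1:**
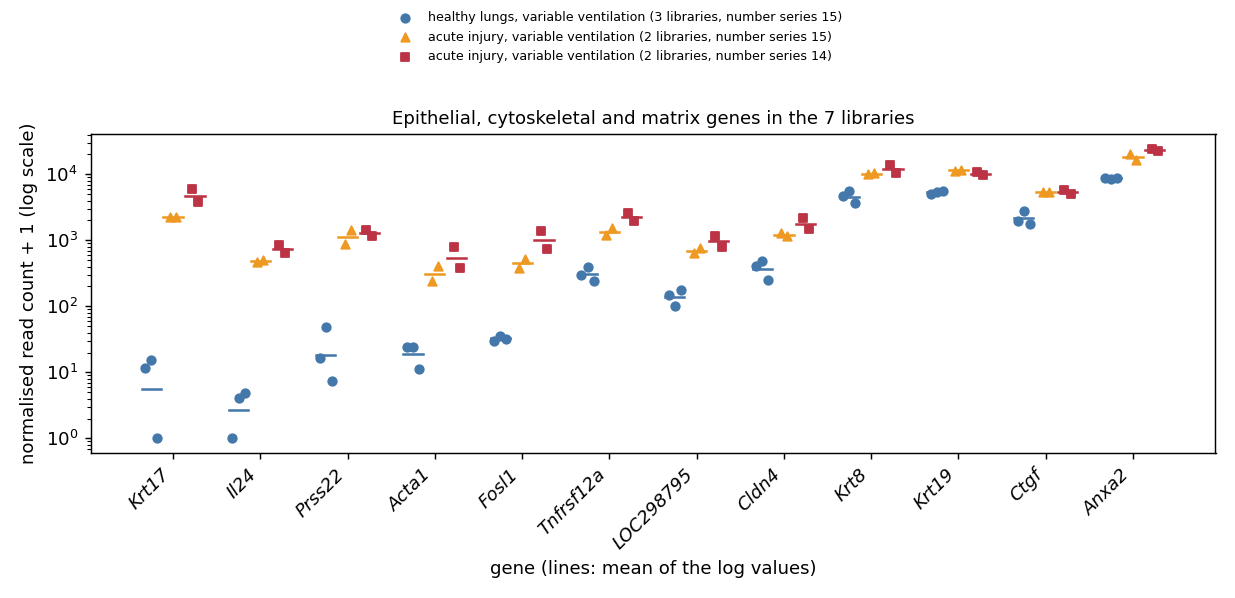
Normalised read count plus 1 (log scale) of 12 raised genes in each of the 7 libraries, with circles for healthy libraries, triangles for acute libraries of number series 15, squares for those of series 14 and lines for the mean of the log values. Every acute library lies above every healthy library for each of the 12 genes, and for Ctgf the acute pairs overlap (4983 to 5781 reads). For Krt19 the series 15 pair lies above the series 14 pair.

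Sequence just upstream of the start site was searched in genes whose rise passed in both acute pairs. Sites farther away were not searched, so a window without a match says nothing about them. Each sequence is the 250 bases before the RefSeq start in build GRCr8, on the gene's own strand. Of 7 genes looked up, Krt17 and Prss22 are named only, Fosl1 and Tnfrsf12a held no match to any of the motifs searched, and the windows of the other 3 are shown because they held one. Capitals mark matches to 3 motifs searched on both strands: the AP-1 motif TGANTCA, the serum response factor motif known as the CArG box, and the TEAD motif GGAATG. Of 33469 promoters of this length, 6.34% held the AP-1 motif, 1.5% the CArG box and 12.1% the TEAD motif.
Acta1: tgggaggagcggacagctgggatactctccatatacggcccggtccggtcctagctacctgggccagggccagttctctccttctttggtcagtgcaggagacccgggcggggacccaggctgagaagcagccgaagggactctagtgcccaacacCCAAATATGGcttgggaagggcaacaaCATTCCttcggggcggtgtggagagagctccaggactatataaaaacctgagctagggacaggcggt
Ctgf: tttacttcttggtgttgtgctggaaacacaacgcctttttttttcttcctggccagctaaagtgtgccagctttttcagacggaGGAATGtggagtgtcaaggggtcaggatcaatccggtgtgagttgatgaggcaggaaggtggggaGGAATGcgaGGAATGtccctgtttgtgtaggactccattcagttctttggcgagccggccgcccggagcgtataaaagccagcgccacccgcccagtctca
Il24: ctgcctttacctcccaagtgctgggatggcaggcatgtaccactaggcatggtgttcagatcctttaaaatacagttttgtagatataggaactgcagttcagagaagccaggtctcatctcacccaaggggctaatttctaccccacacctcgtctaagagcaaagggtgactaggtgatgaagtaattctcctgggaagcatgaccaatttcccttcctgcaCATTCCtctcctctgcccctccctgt
The Acta1 window (chr19:68784195-68784444, minus strand) held 1 CArG box and 1 TEAD match. The window of Ctgf, named Ccn2 in RefSeq (chr1:22624615-22624864, minus strand), held 3 TEAD matches, and that of Il24 (chr13:44910761-44911010, minus strand) held 1. No AP-1 motif as spelled was found in any of the 5 windows. A match describes letters in a window and was not tested as a binding site.

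Of 16 tested members of the list of epithelial stress keratins and barrier genes, 10 were higher and 0 lower, with a median log2 change of 0.82 beside 0.01 over all genes, where 12.9% of genes were higher. Within series 15 the list had 3 higher and a median of 0.96, and with 1 library left out at least 7 were higher (7 without acute_noisy_047 and without healthy_noisy_061). Cldn4, a sealing claudin of tight junctions, had 254 to 483 reads in healthy lungs and 1144 to 2188 in acute ones (log2 change 2.01 ± 0.34, limma adjusted p = 0.00058). Krt19, a keratin of simple epithelium, had 5019, 5455 and 5632 reads in healthy lungs, 11188 and 11788 in the series 15 pair and 10849 and 9752 in the series 14 pair. Krt19 rose by 1.02 ± 0.20 (limma adjusted p = 0.0016), about as much within series 15 (1.10) as within series 14 (0.94). Krt8 rose by 1.27 ± 0.25. Areg, an EGF receptor ligand of wounded epithelium, rose from 17.0 to 41.9 reads to 198 to 487 (log2 change 3.32 ± 0.64), and Hbegf, a second ligand, rose by 1.64 ± 0.35. Not every junction gene moved up: Cldn1, another claudin, fell from 269 to 368 reads to 47.2 to 95.6, with a log2 change of -2.19 ± 0.35 (limma adjusted p = 0.00036) and -1.91 within series 15 (adjusted p = 0.026).

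Ctgf, a matricellular protein and target of the stretch-responsive factors YAP and TEAD, had 1991, 2820 and 1780 reads in healthy lungs, 5323 and 5399 in the series 15 pair and 5781 and 4983 in the series 14 pair. Its log2 change was 1.32 ± 0.23 over all libraries and 1.32 within series 15 (limma adjusted p = 0.00068 and 0.026). Between the acute pairs no difference was detected (-0.00, limma adjusted p = 1). Of 21 tested genes of TGF-beta, BMP and YAP signalling 7 were higher and 0 lower (median log2 change 0.52), beside 12.9% and 13.9% of all genes. The count was 1 within series 15, and 4 without acute_noisy_047 or healthy_noisy_061. Tgfb2, a TGF-beta ligand, rose from 376 to 656 reads to 925 to 1642. Inhba, the activin A subunit, rose from 1.31 to 4.09 reads to 13.5 and 24.4 in series 15 and 78.4 and 174 in series 14 (log2 change 3.65 ± 0.75, limma adjusted p = 0.002). Cyr61, a relative of Ctgf, overlapped: healthy_noisy_078 had 4268 reads against 3950 in acute_noisy_046, and its call was lost without acute_noisy_047, healthy_noisy_061 or healthy_noisy_029 (limma adjusted p = 0.071, 0.08 and 0.093).

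Of 15 cytokines tested, 5 were higher (Csf3, Il24, Il6, Lif and Tnf) and 1 lower (Csf2), beside 12.9% and 13.9% of all genes, 1 was higher within series 15, and 2 were higher without healthy_noisy_061. Il6, a cytokine of the acute phase response (ENSRNOG00000010278), had 1.21, 3.07 and 10.5 reads in healthy libraries, 129 and 78.2 in series 15, and 1435 and 848 in series 14. The log2 change of Il6 was 6.16 ± 1.19 (limma adjusted p = 0.0014) and 4.44 within series 15, where it did not pass (adjusted p = 0.11). For Il6 the series 15 pair thus lay between the healthy libraries and the series 14 pair, an order that Tnf and Il1b did not follow. Il1b, the cytokine of the inflammasome, did not pass: acute libraries held 2149 to 13274 reads and healthy ones 2140 to 5127 (log2 change 0.81 ± 0.53, limma adjusted p = 0.26). Tnf stood at 155 to 922 reads against 125 to 193, overlapping, with acute_noisy_046 (524) above acute_noisy_050 (347.5), and its call was lost in 5 of the 7 fits with 1 library left out (limma adjusted p up to 0.14). Csf2 went the other way, with 76.7 to 110 reads in healthy and 23.2 to 56.2 in acute libraries (log2 change -1.25 ± 0.38, limma adjusted p = 0.021, and up to 0.1 with 1 library left out).

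Of 25 chemokines tested 8 were higher and 0 lower, beside 12.9% of all genes higher, with a median log2 change of 1.18, and 0.31 within series 15, where 0 passed. Without acute_noisy_047 the count was 3. Ccl2, which draws monocytes, had 27.7, 79.8 and 3.92 reads in healthy lungs, 275 and 53.8 in series 15, and 2874 and 1185 in series 14 (log2 change 4.40 ± 1.01, limma adjusted p = 0.0041). acute_noisy_053 thus lay among the healthy libraries for Ccl2. Ccl7, a related monocyte chemokine, was higher in 4 of 4 acute libraries, at 63.6 to 932 against 5.23 to 40.9 reads (log2 change 4.37 ± 0.83). Ccl22, a T cell chemokine, stood at 45.1 and 63.6 reads in series 15 and 723 and 520 in series 14 against 10.5 to 21.7 (log2 change 3.44 ± 0.92, limma adjusted p = 0.01, and 0.055 without acute_noisy_047). Cxcl10, an interferon-induced chemokine, was at 2539 and 505 reads in series 14 but at 84.8 and 37.9 in series 15, below the healthy range of 91.5 to 190. It did not pass over all libraries by limma (log2 change 1.10 ± 0.93, adjusted p = 0.38), passed by edgeR (adjusted p = 0.034) and differed between the acute pairs by -4.29 (adjusted p = 0.0022). Of 22 interferon response genes 1 was higher and 0 lower, fewer than the 12.9% and 13.9% of all genes. Without acute_noisy_047, acute_noisy_050, healthy_noisy_029 or healthy_noisy_061, each left out in turn, 0 were higher. The median log2 change of this list was -0.47 in the series 15 pair and 1.12 in the series 14 pair.

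Of 27 cytokine and chemokine receptors 11 were higher and 0 lower, beside 12.9% and 13.9% of all genes. The count was 0 within series 15, and 5 without acute_noisy_047 or acute_noisy_050. Osmr, the receptor of oncostatin M, had 577 and 938 reads in series 15 and 5256 and 4982 in series 14 against 166 to 652 (log2 change 2.86 ± 0.56, limma adjusted p = 0.0015). Socs3, which dampens cytokine signalling through STAT factors, rose from 866 to 1316 reads to 1758 to 5872 (log2 change 1.5 ± 0.37). Of 13 JAK-STAT and SOCS feedback genes 5 were higher and 0 lower (0 within series 15, and 1 without healthy_noisy_061). Of 12 NF-kB subunits and feedback genes 7 were higher and 0 lower, but the count was 0 within series 15, without acute_noisy_047 and without healthy_noisy_061. Nfkb1, a subunit of NF-kB, held 2778 to 6503 reads in acute and 2083.9 to 2373 in healthy libraries (log2 change 0.86 ± 0.23, limma adjusted p = 0.011, and 0.061 and 0.055 without acute_noisy_047 and healthy_noisy_061).

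Of 23 genes of collagens and matrix 5 were higher and 0 lower (1 higher without acute_noisy_047), and of 14 matrix proteases and their inhibitors 4 were higher and 2 lower (2 higher without acute_noisy_047, acute_noisy_050 or healthy_noisy_061), beside 12.9% and 13.9% of all genes. The lower ones were Timp4, a metalloproteinase inhibitor, at -2.06 ± 0.55, and Mmp11, a metalloproteinase, at -1.06 ± 0.34 (limma adjusted p = 0.011 and 0.025). Neither was called without healthy_noisy_061. Mmp11 was called in only 3 of the 7 fits with 1 library left out (limma adjusted p up to 0.12) and not by edgeR (adjusted p = 0.071). Within series 15 its change was -0.23 (limma adjusted p = 0.82). Neither list had more than 1 member that passed within series 15. Ptx3, a secreted pentraxin of innate immunity (ENSRNOG00000012280), was tightly held at 128, 133 and 137 reads in healthy lungs, 1377 and 1066 in series 15 and 9815 and 11529 in series 14. Its log2 change was 4.75 ± 0.62 (limma adjusted p = 7.5e-05), and it passed within series 15 at 3.18 (adjusted p = 0.0019). Timp1, an inhibitor of matrix metalloproteinases, rose from 492 to 1621 reads to 3605 and 4386 in series 15 and 22690 and 20495 in series 14 (log2 change 3.59 ± 0.51, and 2.37 within series 15, limma adjusted p = 0.0069). Serpina3n, a protease inhibitor of the acute phase, rose by 4.40 ± 0.72, Tfpi2, an inhibitor of plasmin and clotting proteases, by 5.82 ± 1.04, and Calcb, a calcitonin gene-related peptide, by 5.18 ± 0.70. Vcan, a proteoglycan of the provisional matrix, stood at 1858 and 1725 reads in series 15 and 8780 and 7691 in series 14 against 328 to 1074 (log2 change 2.49 ± 0.66, limma adjusted p = 0.01, and 0.051 without acute_noisy_047). Fn1, fibronectin, had 16448 and 16507 reads in series 15 and 54811 and 61690 in series 14 against 8794 to 13878 (log2 change 1.38 ± 0.42, limma adjusted p = 0.019). Its call was lost without acute_noisy_047, acute_noisy_050 or healthy_noisy_061 (adjusted p = 0.091, 0.093 and 0.1).

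Of 18 genes of coagulation and fibrinolysis 11 were higher and 0 lower, beside 12.9% and 13.9% of all genes. Their median log2 change was 0.91, and 3 passed within series 15. With 1 library left out at least 6 passed (6 without acute_noisy_047, acute_noisy_050 or healthy_noisy_061). With the spread taken from the 7 libraries alone 0 passed. F3, tissue factor, which starts clotting, rose from 1987 to 3000 reads to 6661 to 15300 (log2 change 2.02 ± 0.34, and 1.52 within series 15, limma adjusted p = 0.051). Plau, urokinase, rose from 183 to 237 reads to 381 to 1172 (log2 change 1.88 ± 0.30, and 1.27 within series 15, limma adjusted p = 0.038). Anxa2, which binds plasminogen at the cell surface, had 8484 to 8830 reads in healthy and 16603 to 24352 in acute libraries, with the pairs close together (log2 change 1.25 ± 0.15, limma adjusted p = 3.7e-05, and 1.08 within series 15, adjusted p = 0.0038). Fgl2, a prothrombinase of macrophages and endothelium, stood at 3291 and 5050 reads in series 15 and 18494 and 18886 in series 14 against 1503 to 2175.

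**Figure D2:**
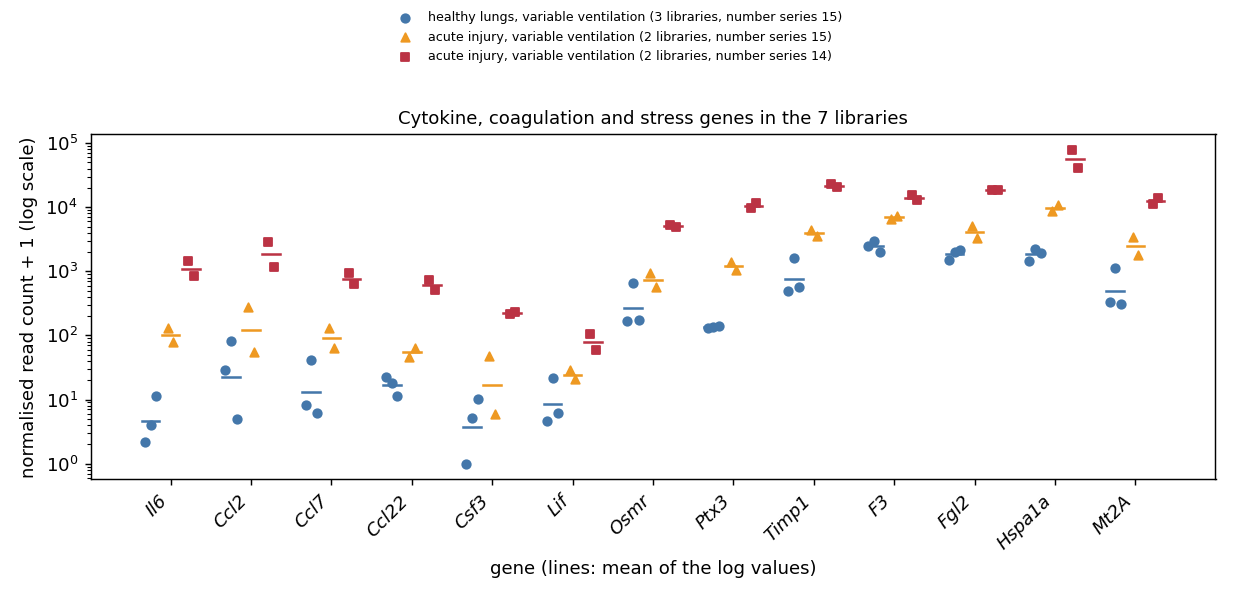
Normalised read count plus 1 (log scale) of 13 cytokine, coagulation and stress genes in the 7 libraries, with circles for healthy libraries, triangles for acute libraries of number series 15, squares for those of series 14 and lines for the mean of the log values. The acute pair of series 15 lies between the healthy libraries and the series 14 pair for most genes, as for Il6 (78.2 and 129 between 10.5 and 848).

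Of 13 heat shock genes 7 were higher and 0 lower, beside 12.9% and 13.9% of all genes. The count was 1 within series 15 and 3 without healthy_noisy_061. Hspa1a, the inducible chaperone of the cytosol, had 1462 to 2221 reads in healthy lungs, 8728 and 10689 in series 15 and 78095 and 41375 in series 14 (log2 change 3.67 ± 0.81, limma adjusted p = 0.0033), and unventilated lungs ranged from 1302 to 14350. Hspe1, the mitochondrial co-chaperonin, passed within series 15 too (log2 change 1.05 ± 0.18 over all and 0.69 within, limma adjusted p = 0.00057 and 0.047). Of 20 genes of hypoxia and glycolysis 14 were higher and 2 lower, the lower count under the share of all genes. Within series 15 the count was 0, and 7 were higher without healthy_noisy_061. Hk2, hexokinase, rose from 490 to 553 reads to 967 to 2920, and Pgk1, a glycolytic kinase, from 2081.5 to 2128 reads to 2707 to 5767 (log2 changes 1.72 ± 0.35 and 0.87 ± 0.18, limma adjusted p = 0.0019 and 0.0018). Vegfa, the vascular growth factor that is part of this list, was one of the 2 lower ones. It had 6725 to 17709 reads against 12938 to 17086, and its call was lost by edgeR (adjusted p = 0.091) and in 4 of the 7 fits with 1 library left out (limma adjusted p up to 0.16). Mt2A, a metal-binding metallothionein, rose from 311 to 1140 reads to 1769 and 3403 in series 15 and 11196 and 13835 in series 14, and Hmox1, haem oxygenase, from 1152 to 1501 reads to 1948 to 11442.

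A few genes of ribosome assembly are given as a description: they were picked out after their values were seen, because they passed within series 15, with no list or test behind the grouping. Nop56, a protein of nucleolar RNA complexes (ENSRNOG00000007128), had 499, 562 and 533 reads in healthy lungs, 1170 and 1186 in series 15, and 2257 and 2152 in series 14 (log2 change 1.60 ± 0.20, limma adjusted p = 6.4e-05, and 1.15 within series 15, adjusted p = 0.0034). Fbl, the methylase of ribosomal RNA, rose by 1.26 ± 0.20, Mybbp1a, a nucleolar protein, by 1.68 ± 0.25, and Nop2, another ribosomal RNA methylase, by 1.32 ± 0.19. Heatr1 and Wdr43, both of the small-subunit processome, rose by 1.85 ± 0.31 and 1.34 ± 0.19. Myc, a transcription factor known to drive such genes, rose from 587 to 787 reads to 1470 to 2498 (log2 change 1.45 ± 0.29, limma adjusted p = 0.0015) and did not pass within series 15 (adjusted p = 0.11). The structural ribosomal proteins differed little, with 1 of 43 higher, beside 12.9% of all genes, and a median log2 change of 0.04. Quantile normalization turned this median to -0.08.

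Leukocyte genes gave a mixed picture. Of 18 neutrophil genes 6 were higher and 0 lower, and 0 passed within series 15 or without acute_noisy_047, acute_noisy_050 or healthy_noisy_061. Their summed level was 29626 to 40696 reads in healthy lungs, 29600 and 82856 in the series 15 pair and 115063 and 118009 in the series 14 pair, so that acute_noisy_053 was no higher than the healthy libraries. Csf3r, the receptor of the neutrophil growth factor, had 3179 to 3556 reads in healthy and 3847 to 12690 in acute libraries (log2 change 1.31 ± 0.44, limma adjusted p = 0.031, and up to 0.12 with 1 library left out). S100a8, an abundant neutrophil protein, did not pass (4552 to 19930 against 5121 to 6563 reads, limma adjusted p = 0.15, and 0.023 without acute_noisy_053). Unventilated lungs, of number series 12, had only 246 to 573 reads of Csf3r, below both acute_noisy and healthy_noisy. In whole tissue more cells of a type and more RNA per cell cannot be told apart. The summed neutrophil level was highest in the series 14 pair, as were Il6 and Ccl2, while Tnf and Il1b did not follow this order. The part of leukocytes in the cytokine results was not tested. Of 21 macrophage genes 2 were higher (Msr1, a scavenger receptor, and Nos2, the inducible nitric oxide synthase) and 1 lower (Ear11, a ribonuclease of resident macrophages), fewer than the 12.9% and 13.9% of all genes, and both higher calls were lost without acute_noisy_047 (limma adjusted p = 0.069 and 0.064) and without healthy_noisy_061 (adjusted p = 0.067 and 0.054). Of 20 T and NK cell genes 2 were higher (0 without acute_noisy_050), also under the share of all genes, and of 16 B and plasma cell genes 0 passed by limma, edgeR or DESeq2 (1 at an unadjusted limma p under 0.05).

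Of 17 genes of adhesion and endothelial activation 6 were higher and 1 lower (Vegfa, above), beside 12.9% and 13.9% of all genes. Within series 15 the count was 0, and 3 were higher without acute_noisy_047 or healthy_noisy_061. Selp, the selectin that starts rolling of leukocytes, had 159 to 503 reads in healthy lungs, 2137 and 975 in series 15 and 7781 and 2638 in series 14 (log2 change 3.19 ± 0.65, limma adjusted p = 0.0019). Vcam1, which then holds them, stood at 947 to 1329 reads in 3 acute libraries and 4756 in acute_noisy_047 against 507 to 634, and was not called without acute_noisy_047 (limma adjusted p = 0.081). Angpt2, which loosens endothelial junctions, rose from 189 to 199 reads to 248 to 726.

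**Figure D3:**
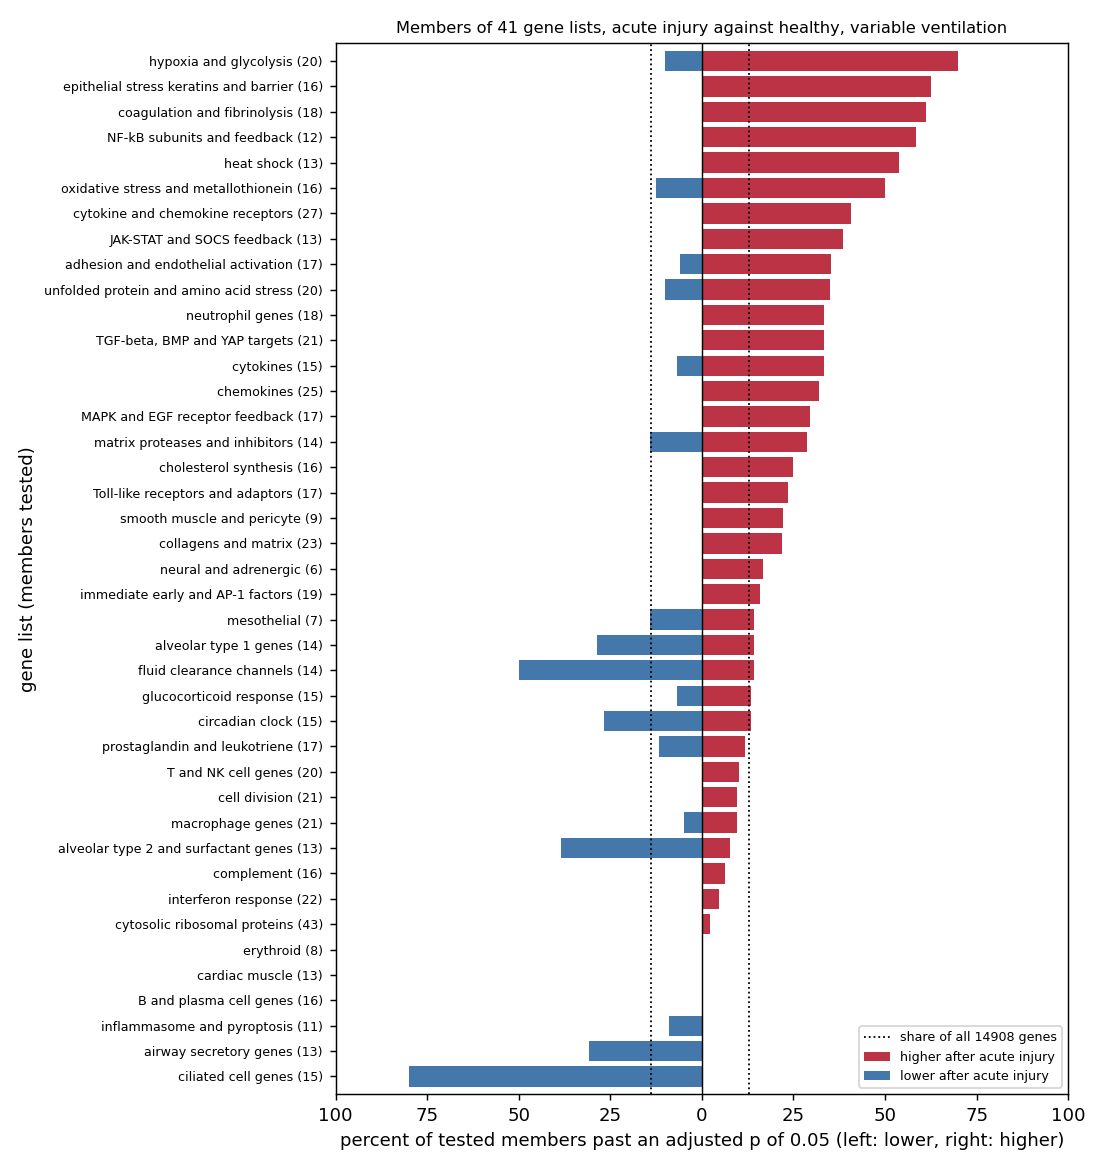
Percent of tested members of each of 41 gene lists that passed an adjusted p of 0.05 over all 4 acute against 3 healthy libraries, with higher members to the right and lower members to the left, the number tested in brackets and dotted lines at the share of all genes (12.9% higher, 13.9% lower). Hypoxia and glycolysis, keratins and coagulation have the longest bars to the right (14 of 20, 10 of 16 and 11 of 18), and ciliated cell genes to the left (12 of 15).

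The largest falls by log2 change among named genes were in Sostdc1 and Adhfe1, and Selenbp1 and Ephx1 were added after their values were seen. Adhfe1, a mitochondrial alcohol dehydrogenase (ENSRNOG00000007069), had 1031, 501 and 766 reads in healthy lungs, 200 and 247 in series 15, and 33.1 and 18.6 in series 14 (log2 change -3.27 ± 0.59, limma adjusted p = 0.00082, and -1.72 within series 15, adjusted p = 0.034). Sostdc1, a secreted antagonist of BMP and Wnt signals, fell from 35.3 to 84.4 reads to 14.4 and 19.6 in series 15 and 0.83 and 0.84 in series 14 (log2 change -3.44 ± 0.62, limma adjusted p = 0.00084). Dcdc5, a doublecortin-domain protein (ENSRNOG00000022178), fell from 107 to 298 reads to 32.5 and 56.2 in series 15 and 13.3 and 19.4 in series 14, and passed within series 15 (log2 change -2.16, limma adjusted p = 0.019). Selenbp1, a selenium-binding oxidase, went from 4208 to 5543 reads to 1888 and 1981 in series 15 and 846 and 437 in series 14, and Ephx1, the microsomal epoxide hydrolase, from 1977 to 2767 to 1132 and 1239, then 427 and 445. Their log2 changes were -2.13 ± 0.34 and -1.77 ± 0.28 (limma adjusted p = 0.00036 for each, 0.008 and 0.017 within series 15).

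Ciliated cell genes fell as a group. Of 15 tested 12 were lower and 0 higher, beside 13.9% of all genes lower, with a median log2 change of -1.27. In the series 15 pair the median was -0.67 and 0 passed, and the lowest count with 1 library left out was 7 (without acute_noisy_047 or healthy_noisy_078). Dnai2, a dynein arm protein, had 439, 596 and 254 reads in healthy lungs, 164 and 199 in series 15, and 95.2 and 114.7 in series 14 (log2 change -1.55 ± 0.31, limma adjusted p = 0.0018). Mlf1, a ciliary protein, fell by 1.89 ± 0.33 and Spag6, of the central pair apparatus, by 1.41 ± 0.33. Healthy_noisy_029 was the lowest healthy library for each of the 3.

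Of 13 airway secretory genes 4 were lower and 0 higher, beside 13.9% and 12.9% of all genes. With 1 library left out 3 to 6 were lower, 0 passed within series 15, and 2 were higher without healthy_noisy_078. Scgb3a2, a secretoglobin of club cells, had 6412, 6158 and 2556 reads in healthy lungs, 1921 and 2177 in series 15, and 1283 and 1270 in series 14 (log2 change -1.53 ± 0.29, limma adjusted p = 0.0014). Aldh1a1, a retinaldehyde dehydrogenase, fell from 4651 to 8292 reads to 1457 to 3645, and Cyp2b1, a xenobiotic oxidase, from 9125 to 11437 reads to 6202 and 6476 in series 15 and 2054 and 1150 in series 14. Scgb1a1, the club cell protein, overlapped by 1 library, with 237378 reads in acute_noisy_053 against 234269 in healthy_noisy_029 (log2 change -1.14 ± 0.36, limma adjusted p = 0.025). Its call was lost without acute_noisy_047, acute_noisy_050 or healthy_noisy_061 (adjusted p = 0.1, 0.098 and 0.13). Fewer such cells in the piece sampled and less RNA per cell were not told apart.

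Of 13 alveolar type 2 genes 5 were lower and 1 higher, beside 13.9% and 12.9% of all genes. Within series 15 the count was 0, and 1 was lower without acute_noisy_050 or healthy_noisy_029. Nkx2-1, the lineage factor of lung epithelium, had 4289 to 5109 reads in healthy lungs, 3389 and 3865 in series 15 and 1296 and 1464 in series 14 (log2 change -1.08 ± 0.26, limma adjusted p = 0.0056). Sftpc had 265201 to 314136, then 253499 and 247113, then 129597 and 139958 reads (log2 change -0.67 ± 0.22, limma adjusted p = 0.029). Quantile normalization took the Sftpc change to -0.01 (adjusted p = 0.97), edgeR gave -0.54 (adjusted p = 0.071), and the call was lost in 4 of the 7 fits with 1 library left out (limma adjusted p up to 0.13). Alveolar type 1 genes had 4 lower and 2 higher of 14 (2 and 0 without acute_noisy_047 or healthy_noisy_061), with the higher count near the share of all genes. Neither Ager nor the water channel Aqp5 passed (log2 changes -0.43 ± 0.17 and -0.34 ± 0.34, limma adjusted p = 0.067 and 0.46). Ager passed without acute_noisy_046 or acute_noisy_053 (adjusted p = 0.026 and 0.018).

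Of 14 channel genes of alveolar fluid clearance 7 were lower and 2 higher (the chloride channel genes Cftr and Slc26a9), beside 13.9% and 12.9% of all genes. Within series 15 the count was 0, and 4 were lower without acute_noisy_050. The epithelial sodium channel carries sodium, and water with it, out of the air space. Its beta subunit Scnn1b had 847, 826 and 938 reads in healthy lungs, 708 and 560 in series 15 and 449 and 496 in series 14 (log2 change -0.67 ± 0.14, limma adjusted p = 0.0024). The gamma subunit Scnn1g fell by 0.94 ± 0.22, to 552 to 980 reads (limma adjusted p = 0.0042), and the alpha subunit Scnn1a from 16791 to 20070 reads to 8162 to 16137 (log2 change -0.65 ± 0.20, limma adjusted p = 0.022). The Scnn1a call was lost in 4 of the 7 fits with 1 library left out (adjusted p up to 0.11). All 3 subunits were lower in every acute library than in every healthy one.

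Of 15 clock genes 4 were lower and 2 higher, beside 13.9% and 12.9% of all genes, with 1 lower within series 15. With 1 library left out 3 to 6 were lower, and 0 were higher without acute_noisy_047, acute_noisy_050 or healthy_noisy_061. Tef, a transcription factor of the clock output, had 4770, 3034 and 5311 reads in healthy lungs, 2037 and 2061 in series 15 and 865 and 887 in series 14 (log2 change -1.67 ± 0.27, limma adjusted p = 0.00041, and -1.05 within series 15, adjusted p = 0.03). Dbp, a relative of Tef, fell by 1.62 ± 0.34 and Nr1d1, a repressor of the clock, by 1.64 ± 0.41. In these 3 genes healthy_noisy_078 was the lowest healthy library, and for Dbp, at 303 reads, it was near the highest acute library at 281. The hours at which lungs were taken are not in the labels used here, and their part in this result was not tested.

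**Figure D4:**
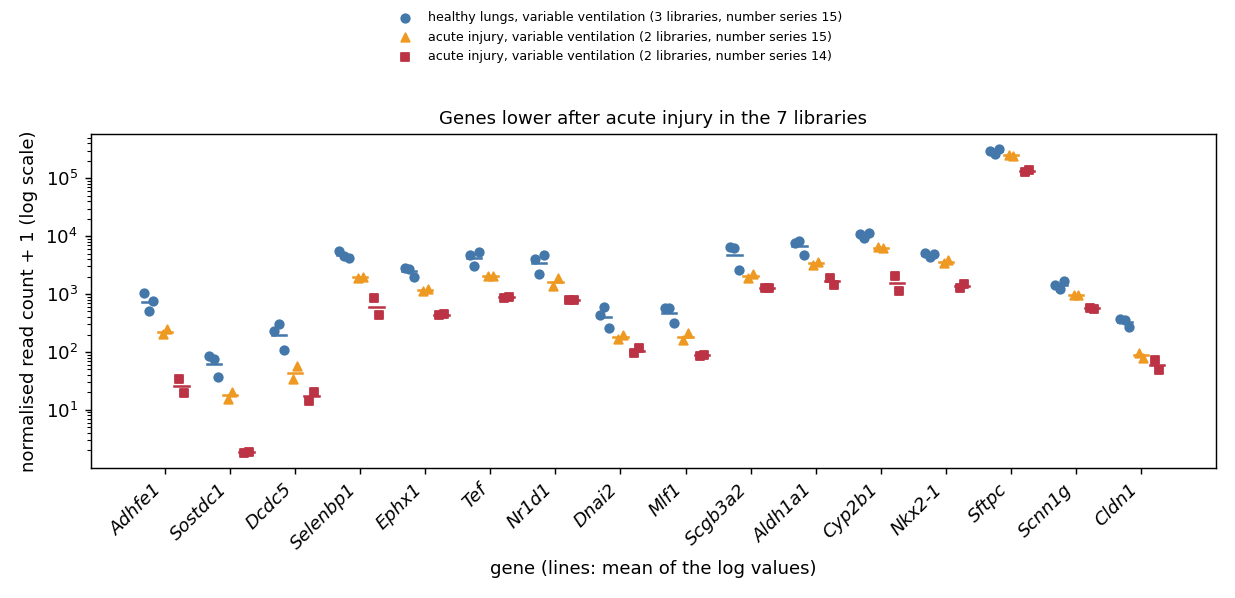
Normalised read count plus 1 (log scale) of 16 genes lower after acute injury in the 7 libraries, with circles for healthy libraries, triangles for acute libraries of number series 15, squares for those of series 14 and lines for the mean of the log values. The series 15 pair lies between the healthy libraries and the series 14 pair for most genes, as for Adhfe1 (200 and 247 between 501 and 33.1).

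Cardiac muscle genes, active in rats in the pulmonary vein wall too, varied by library. Of 13 tested 0 passed over all libraries by limma (1 at an unadjusted p under 0.05), while 1 was higher by edgeR, 5 by DESeq2 and 2 with array quality weights. In the series 14 pair 10 were higher, and in the series 15 pair 1 was lower. Their summed level was 511 to 1604 reads in healthy lungs, 396 and 577 in the series 15 pair and 2891 and 10133 in the series 14 pair. Myh6, the atrial myosin chain, had 88.0, 200.5 and 13.1 reads in healthy lungs, 0.90 and 3.67 in series 15 and 2574 and 749 in series 14. The pairs differed in Myh6 by -8.87 (limma adjusted p = 2.3e-05).

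The effect of injury was set beside that under constant tidal volume (acute_VCV, n = 3, against healthy_VCV, n = 4). There 7829 genes passed (52.5%), 3894 higher (26.1%) and 3935 lower (26.4%), and 1758 genes passed in both comparisons with the same direction, 44.1% of the genes called under variable and 22.5% of those called under constant ventilation. The difference between the injury effects passed for 5813 genes (39%) and for 1360 with the series covariate. All acute_VCV libraries are of number series 12, shared with the unventilated lungs only, so mode of ventilation and series cannot be told apart here. Krt17 changed by 9.67 under constant volume, and the difference of -0.51 ± 1.07 did not pass (limma adjusted p = 0.73). Il24 and Acta1 likewise did not pass (differences -0.74 ± 1.04 and -0.63 ± 0.61, limma adjusted p = 0.6 and 0.42), which does not show them to be equal. Of 16 epithelial stress keratins and barrier genes the difference was lower for 4 and higher for 1, beside 19.4% and 19.6% of all genes. Cldn4 was at 2.01 against 3.77 (difference -1.76 ± 0.48, limma adjusted p = 0.0066) and the matricellular gene Ctgf at 1.32 against 2.43 (difference -1.11 ± 0.32, adjusted p = 0.0096). In reads, acute lungs held 1144 to 2188 of Cldn4 under variable and 2965 to 4165 under constant volume.

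Of 23 genes of collagens and matrix the difference was higher for 12 and lower for 0, beside 19.6% and 19.4% of all genes. Vcan changed by 2.49 under variable and -0.78 under constant ventilation (difference 3.27 ± 0.94, limma adjusted p = 0.0087), Fn1 by 1.38 and -0.44 (difference 1.82 ± 0.59, adjusted p = 0.018) and Inhba by 3.65 and 0.83 (difference 2.82 ± 1.06, adjusted p = 0.038). For these genes the healthy groups differ as well. Vcan had 328 to 1074 reads in healthy lungs under variable and 818 to 5515 under constant volume, ranges that overlap. Fn1 had 8794 to 13878 against 18734 to 34364 and Inhba 1.31 to 4.09 against 6.63 to 10.33, with no overlap. How much of each difference lies in the healthy groups was not tested. Of 13 airway secretory genes the difference was lower for 3, near the 19.4% of all genes. Scgb3a2 was at -1.53 against 0.39 (difference -1.91 ± 0.42, limma adjusted p = 0.0015) and the alveolar type 2 gene Sftpc at -0.67 against 0.43 (difference -1.10 ± 0.31, adjusted p = 0.008). Of 43 cytosolic ribosomal proteins, the effect was lower under variable ventilation for 32 and higher for 1, beside 19.4% of all genes lower, and 38 of the 43 were higher after injury under constant volume. Their summed level was 280480 to 378000 reads in the unventilated uninjured lungs, which share number series 12 with acute_VCV. In the 7 libraries it was 186810 to 245780. The part of the series in this result was not tested.

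**Figure D5:**
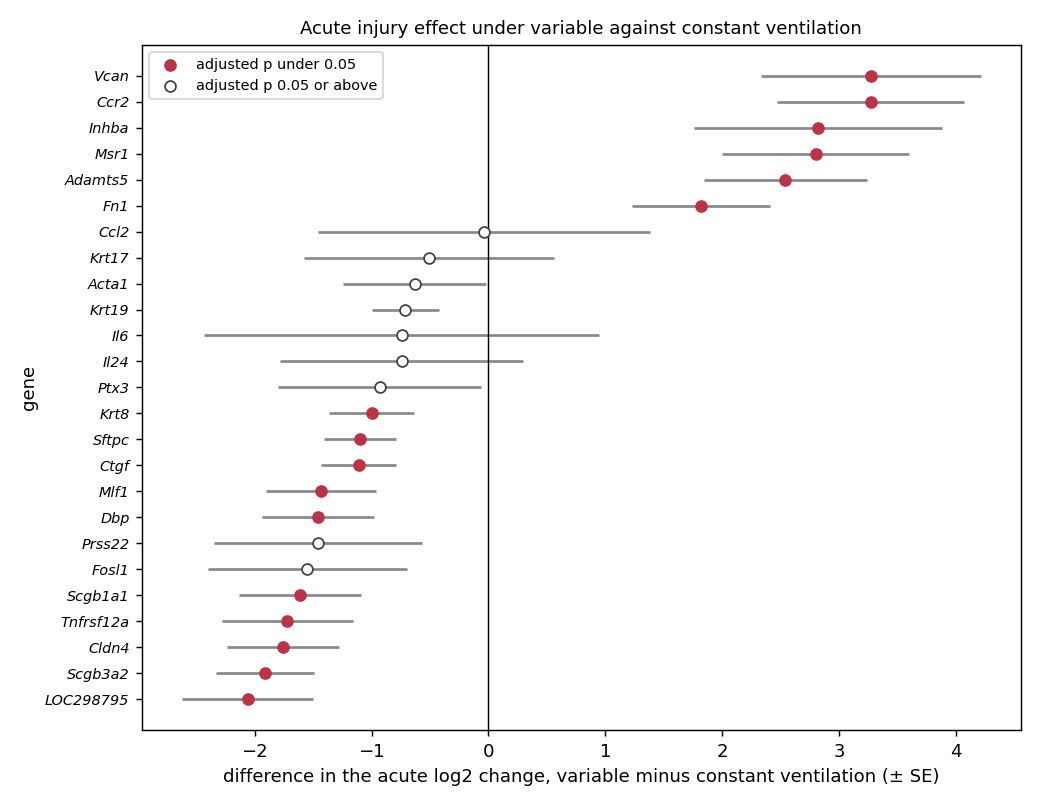
Difference in the log2 change after acute injury, variable minus constant ventilation, with its standard error, for 25 genes, with filled points where the adjusted p is under 0.05. Krt17, Il24 and Acta1 are open points near zero, Cldn4 (-1.76) and Ctgf (-1.11) lie to the left, and Vcan (3.27) and Inhba (2.82) to the right.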

How the data were processed

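Lung RNA was selected for poly(A), and strand-specific libraries (dUTP) were sequenced on a HiSeq 2000, per the labels' protocols. The submitters' processing notes name CASAVA 1.8.0, BWA, bedtools 2.11, DESeq 1.8.3 and build rn4 without their roles, and the file header gives Ensembl version 67. The deposited signal is a read count divided by 1 size factor per library. All values were whole multiples of 1 read within 0.1 read, which gave the depths printed. How ambiguous reads were counted is not given in the sources used here.

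Genes averaging 10 or more in the deposited table were fitted with limma 3.58.1 (R 4.3.3) on log2(value + 1), with 1 mean for each of the 8 groups over all 28 libraries, a trend and a robust prior. Tests were two-sided with Benjamini-Hochberg adjustment over 14908 genes and a threshold of 0.05. Fold changes are on the log2(value + 1) scale, which understates changes of low genes. The acute pairs were compared in a fit that gives each its own mean. Alternatives were a pseudocount of 10, no filter, quantile normalization, other sets of libraries, a series covariate, array weights, edgeR 4.0.16 and DESeq2 1.42.0 on recovered reads. On simulated reads for this comparison with 14908 genes, 58 of 100 genes changed 2-fold and 92 of 100 changed 4-fold were called, with 9 of 14708 unchanged genes called. The simulated libraries were drawn independently of each other, with the same spread in every group. They lack the split of the acute libraries into pairs, so these rates do not carry over to the real comparison.

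No pair of replicates held equal counts. Of 17002 genes 3275 carry no symbol and are not named. The groups, the 41 lists and the rules were chosen with earlier results of these data known. The rule took genes that carry a symbol, passed the threshold, did not overlap and averaged 50 or more in whichever group was higher, and named the 12 that rose most and the 12 that fell most, then up to 3 members per list with the smallest p and a set of fixed genes. It gave 132 genes, of which the text describes part. Some genes are not reported here. The 31 genes described outside it were chosen after their values were seen, among them Tnfrsf12a, LOC298795, Cldn1, Krt8, Ccl22, Fgl2, Csf2, Vegfa, Cyr61, Vcam1, Csf3r, Selenbp1, Ephx1, Spag6, Sftpb, Scnn1a, Myh6 and the ribosome assembly genes. Plots were drawn with matplotlib 3.10.9, and tables made with pandas 2.3.3 and numpy 2.4.6 in Python 3.11.15.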

Additional observations from a re-analysis of the deposited data

Results flagged for a closer look

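In 2 of the 128 genes checked, 1 of the 4 acute_noisy libraries stood apart from the other 3 by Dixon's ratio, the gap to its nearest neighbour over the range of the group, at a limit that chance passes in about 1 group of 20. Both were in acute_noisy_047, where Krt8 had 13798 reads (ratio 0.856) and Vcam1 4756 reads (ratio 0.900).

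The effect of acute injury differed between variable and constant ventilation for 27 of the 128 genes checked, by the test of the difference in limma at an adjusted p of 0.05. That is a smaller share than the 39% of all genes tested that passed it. All acute_VCV libraries belong to number series 12, so ventilation and series cannot be told apart. Differences are log2, variable minus constant. The effect was higher under variable ventilation for Ccr2 (3.27), Vcan (3.27), Inhba (2.82), Msr1 (2.80), Adamts5 (2.54), Fn1 (1.82), Rel (1.70), and Hk2 (1.26). Healthy libraries were lower under variable than constant volume, without overlap, for Fn1, Inhba, Ccr2, Adamts5 and Hk2. Ccr2 had 32.6 to 39.9 against 65.8 to 239 reads there, and Adamts5 39.8 to 75.7 against 104 to 171.5. The part of these healthy levels in the differences was not tested.

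Among epithelial and stretch genes the effect was lower under variable ventilation for LOC298795 (-2.06), Cldn4 (-1.76), Tnfrsf12a (-1.72), Epcam (-1.12), Ctgf (-1.11) and Krt8 (-1.0). For secretory, ciliated and alveolar genes it was lower in Scgb3a2 (-1.91), Scgb1a1 (-1.61), Mlf1 (-1.43), Sftpc (-1.10), Sftpb (-1.04) and Nkx2-1 (-0.94). Other genes with a lower effect were Csf2 (-1.67), Dbp (-1.46), S100a10 (-1.20), Hspe1 (-0.91), Ldha (-0.90), Vegfa (-0.88) and Fbl (-0.82).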

How the results depend on the processing

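No paired analysis was possible because no replicate number occurs in more than 1 of the groups compared. For the injury effect, 3987 genes over all libraries, the count was 153 with the acute libraries of series 15 only, 7311 with those of series 14 only, 732 with the series covariate, 8 with only the 7 libraries and 6748 with array quality weights, and 1555 to 6146 with 1 library left out. A pseudocount of 10 (4042), no filter (3963), quantile normalization (3905), edgeR (4147) and DESeq2 (4645) kept it within 1.5 times, and 3405 of the edgeR calls were limma calls in the same direction. The share of calls that were higher was 48.2% by limma and 63.6% by edgeR, whose scaling moved the median of all genes from 0.01 to 0.08. For the difference between the injury effects (5813) the series covariate gave 1360, and leaving out 1 library gave 4320 to 6757. For the acute pairs (3412) leaving out 1 library gave 526 to 3051, and quantile normalization moved the share of calls higher in series 15 from 54.5% to 62.1%.

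Of the 128 genes checked, 85 lost their call and 40 kept their side of the threshold within series 15, and 52 lost it with the covariate. With only the 7 libraries 17 kept their side of the threshold. Of the 41 gene lists, 38 had fewer members past the threshold in that fit. Directions turned for 3 genes. Cxcl10 went to -1.05 within series 15, -0.05 with the covariate and between -0.00 and 2.01 with 1 library left out. Aqp5 went to 0.05 within series 15. Myh6 went to -4.41 within series 15 (adjusted p = 0.012), -3.01 with the covariate, -0.06 with quantile normalization and between -1.75 and 1.72 with 1 library left out. The cause of these changes was not tested.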
